A study of Mus musculus with 4 samples.

Results

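The genes described here are 10 genes that act in the transcriptional response to receptor tyrosine kinases: the ETS-family transcription factor genes Etv1, Etv4, Etv5, Ets1 and Ets2, and the signalling inhibitor genes Spry1, Spry2, Spry4, Spred1 and Spred2. They were chosen by name from 20665 autosomal protein-coding genes, with earlier results of these data known. For each, all listed H3K27ac HiChIP interactions were taken in which either 10 kb anchor bin overlapped the gene body or the 2.5 kb around either gene end, an area called the gene window below. These were 320 of the 99041 interactions in the list (0.323%), and no interaction was counted for more than 1 of the 10 genes.

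H3K27ac HiChIP enriches pairs of ligated chromatin fragments for acetylated histone H3 lysine 27, a mark of active promoters and enhancers. It so reports which regions lie close to marked regions in the nucleus. A pair can be enriched through either fragment, and the list does not say which anchor carries the mark. The labels describe 4 mouse brain libraries made with the H3K27ac antibody. Their titles say ChIP-seq, while the extraction protocol and the series design name HiChIP, which the paired anchors of the list call for. The libraries were 2 of wild-type neural stem cells (mNSC in the titles, neural progenitor cells in another label) and 2 of YAP-M tumor with the YAP-M fusion genotype, in which YAP1, a transcriptional co-activator, is joined to MAMLD1. The growth text is the same for all 4 and names a medium that holds the growth factors EGF (10 ng/ml) and basic FGF (20 ng/ml) with heparin (2 µg/ml), although the series design speaks of cells taken from tumor tissue. How the fusion was delivered, and whether libraries came from separate animals, is not given in the sources used here. By its letters YM, the deposited list was taken to be of YAP-M tumor. The list names no library and carries no read count or score, so depth is unknown, no value has a replicate error, no test was run, and neural stem cells were not compared with tumor. The list gives no expression. All 21 marker genes checked for 6 brain cell types had an interaction, where 67.8% of coding genes did with a median of 3. The medians were 9 for neural progenitor, 19 for ependymal, 13 for endothelial, 8 for oligodendrocyte lineage, 2.5 for microglia and 2 for neuron markers. Which cells the contacts of the 10 genes came from was not tested.

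As background, EGF and FGF receptors signal through RAS and the ERK kinases. Active ERK acts on ETS factors, which bind DNA at GGAA-containing sites, and raises transcription of Etv4, Etv5 and the Sprouty genes in many tissues. Sprouty and Spred proteins in turn restrain the same cascade at the level of RAS and RAF, so that these genes form both the output and the brake of the pathway. In the developing brain, FGF signalling through this circuit patterns the forebrain and maintains progenitors.

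All 10 genes had at least 1 interaction (100%, exact 95% interval 69.2 to 100%), where 67.8% of coding genes and 53% of all annotated genes did. The interval treats the genes as random draws, although they were chosen by name, so it is no test against these shares. Their median was 31.5 interactions per gene window, against 3 for all coding genes. At least 5 interactions were listed at 9 of the 10 genes (41.9% of coding genes), at least 10 at the same number (23.6% of coding genes), at least 20 at 6 (9.18% of coding genes) and at least 40 at 3 (2.42% of coding genes), limits set after the values were seen. By family, the Spred genes had 74 and 26, the Sprouty genes 48, 48 and 11, Ets1 and Ets2 37 and 38, and the PEA3 factors Etv1, Etv5 and Etv4 18, 16 and 4. Without replicates, no pair of genes can be said to differ, whether close in this order (38 and 37, or 18 and 16) or further apart.

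A longer gene covers more bins, and neighbouring bins are often listed with the same partner, so 2 further scales were used. Per bin of the gene window, Spry1 and Spry2 stood highest with 24.0 interactions each, a level reached by 0.174% of coding genes. Ets2 followed with 9.50 and Spred1 with 9.25, while the other 6 genes had between 1.33 and 3.67, and the median of all coding genes was 0.667. The tie rests on the lower bin of Spry1, whose midpoint the gene does not reach: counting only bins whose midpoint lies in the window, Spry1 had 27 interactions and Spry2 47. When interactions adjacent at both anchors were merged into single contacts, the 10 genes had 60 contacts, from 2 at Etv4 and at Ets2 to 13 at Spry2, with a median of 5.5 against 2 for coding genes. At least 5 merged contacts were found at 7 of the 10 (17.9% of coding genes). Merging changed the order: Ets2, the third highest per bin, had 2 contacts, a number reached by 52.1% of coding genes, whereas Spred2 had 10. Counting interactions at the 2 gene ends alone, all 10 genes had 1 or more (65.7% of coding genes), with a median of 18.5 against 2.

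**Figure D1:**
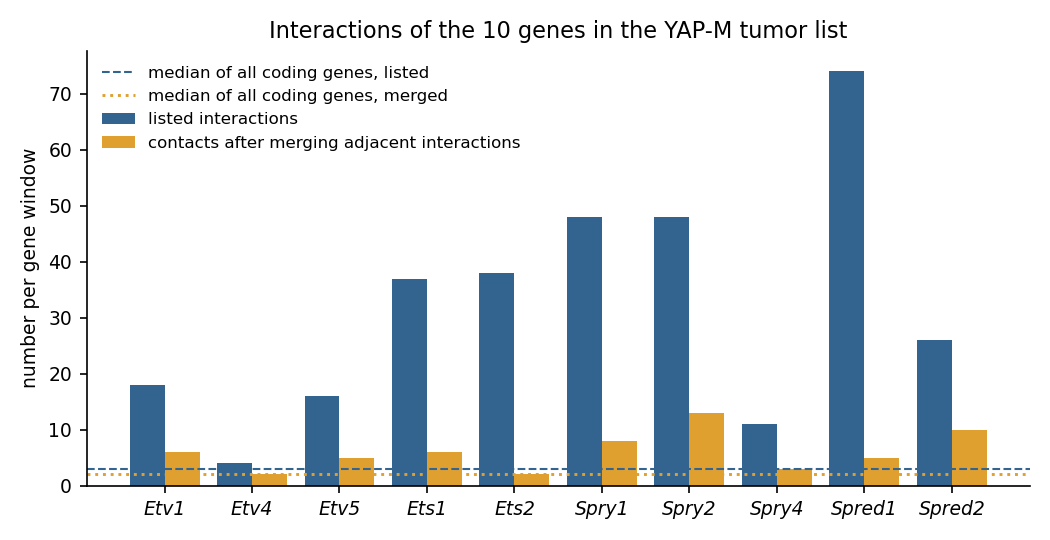
Number of listed interactions (blue) and of contacts after merging adjacent interactions (yellow) in the window of each gene; dashed and dotted lines mark the medians of all coding genes, 3 and 2. Spred1 has the most interactions (74) but 5 merged contacts, whereas Spry2 has 48 and 13.

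The Sprouty genes encode membrane-associated inhibitors of receptor tyrosine kinase signalling. Spry2 is a short gene of 4.87 kb on chromosome 14 (105891947 to 105896819, mm10), transcribed toward lower coordinates. Its 48 interactions came almost entirely from a single bin. The bin from 105890001 to 105900000 holds the whole gene with its start site. It had 47, a number reached by 0.0603% of the 56427 anchors in the list. The other bin of the window, which overlaps the flank alone, had 1. Of the 48, 43 went to lower coordinates, downstream of the gene, and 5 to higher coordinates. The downstream partners filled 42 of the 65 bins between 105170001 and 105820000 (64.6%), in a run with gaps that began 70 kb from the window and reached 710 kb. The longest interaction spanned 720 kb, the longest among the 10 genes, and the median was 385 kb. Of the 47 partner bins, 27 had no listed interaction other than the one with Spry2.

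The partners of Spry2 lay mostly away from coding genes. Bins between coding genes took 43 of the 48 interactions, and Spry2 has 1 other coding gene within 500 kb of its body, as few as 1.63% of coding genes. Ndfip2, which encodes an adaptor of NEDD4-family ubiquitin ligases and lies 583 kb away, had an end in 3 partner bins, and Rbm26, an RNA-binding protein gene, had an end in 1. The 13 merged contacts were led by a run of 11 interactions with bins from 105540001 to 105650000 and a run of 8 with bins from 105360001 to 105440000.

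Spry1, of 4.65 kb on chromosome 3 (37639947 to 37644599) and transcribed toward higher coordinates, also had 48 interactions, but spread over both of its bins, with 21 and 27. Of these, 45 lay downstream and 3 upstream, and the downstream partners reached 560 kb from the window. They filled 28 of 49 bins (57.1%), a share near that of Spry2, and fell into groups: 9 interactions with bins from 37720001 to 37770000, 15 with bins from 37870001 to 37980000 and 10 with bins from 38100001 to 38150000 were the largest of 8 merged contacts. All 48 interactions passed over an end of another coding gene. The predicted gene Gm5148, the next gene downstream, had an end in a partner bin with 2 interactions, and the 3 upstream interactions ended inside Spata5, a gene of an AAA-family ATPase. Through other interactions, the partner bins of Spry1 also contacted ends of Gm5148 (8 interactions), Nudt6 and Spata5 (5 each) and Fgf2, the basic FGF gene (1).

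The 300 bases around the start sites of Spry1 and Spry2, whose bins carried these contacts, are shown 5′ to 3′ on the strand of each gene, from 250 bases before to 50 after the start, from RefSeq (GRCm38.p6, the assembly of mm10). Capitals mark a match to the TEAD motif GGAATG on either strand. Spry1 lies on the plus strand at chr3:37639697-37639996 and Spry2 on the minus strand at chr14:105896770-105897069.
Spry1: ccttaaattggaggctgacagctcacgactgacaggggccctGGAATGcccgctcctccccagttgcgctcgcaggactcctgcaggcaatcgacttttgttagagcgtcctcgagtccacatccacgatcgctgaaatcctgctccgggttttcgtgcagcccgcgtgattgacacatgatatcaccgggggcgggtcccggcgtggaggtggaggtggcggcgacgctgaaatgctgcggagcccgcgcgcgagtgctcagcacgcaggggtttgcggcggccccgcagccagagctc
Spry2: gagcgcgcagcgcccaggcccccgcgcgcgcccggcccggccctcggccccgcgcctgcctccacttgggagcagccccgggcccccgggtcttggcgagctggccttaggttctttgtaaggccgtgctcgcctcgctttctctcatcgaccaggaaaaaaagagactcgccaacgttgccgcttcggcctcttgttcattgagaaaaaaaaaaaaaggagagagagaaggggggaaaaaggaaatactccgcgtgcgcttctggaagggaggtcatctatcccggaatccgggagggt

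Spry4 lies on chromosome 18 (38586247 to 38601347) and had 11 interactions, all toward higher coordinates and between 140 and 240 kb long. The bin from 38600001 to 38610000 held 9 of them. That bin also holds an end of Arhgap26, a gene that begins 0.27 kb from Spry4, so the contacts cannot be assigned to either gene, and 1 interaction was left when such shared bins were removed. All 11 interactions ended inside Arhgap26, and 2 of them in bins that also hold an end of Fgf1, which lies within Arhgap26. Fgf1 encodes acidic FGF, a ligand of FGF receptors. Fgf1 had 15 interactions in its own window.

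**Figure D2:**
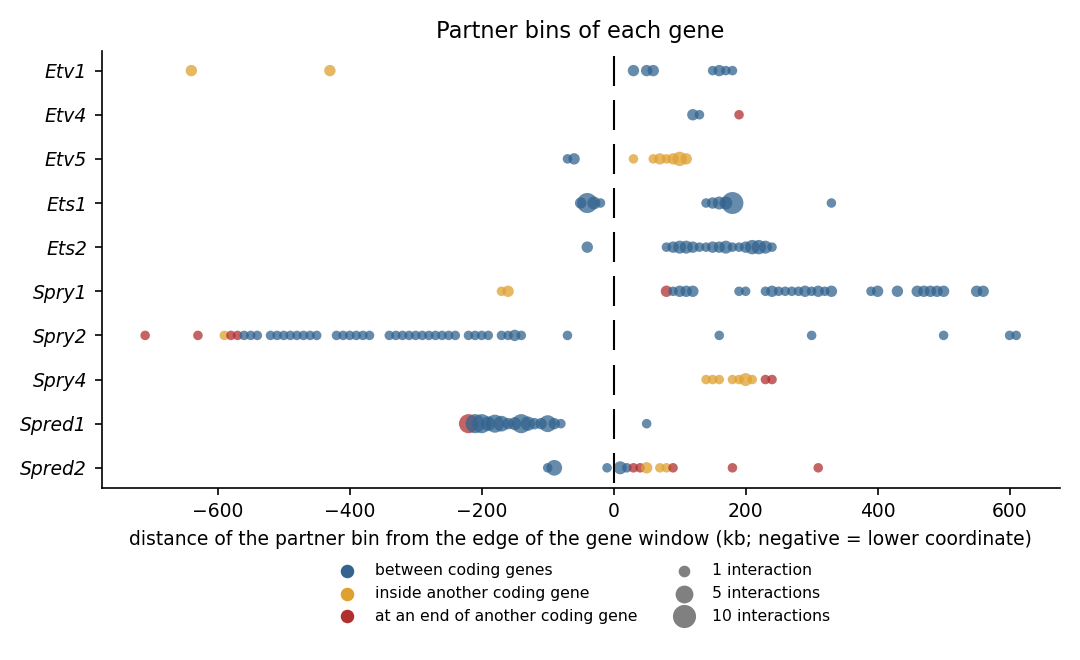
Each point is a partner bin, placed by its distance in kb from the edge of the gene window (negative values are lower coordinates); size gives the number of interactions with the gene and colour the position relative to other coding genes. Partners of Spry2 extend with gaps to 710 kb on 1 side, those of Spred1 a dense block within 220 kb.

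Spred proteins carry an EVH1 and a Sprouty-related domain and inhibit RAS activation, in the case of Spred1 by recruiting the RAS GTPase-activating protein neurofibromin. Spred1, of 61.2 kb on chromosome 2 (117121071 to 117182279) and transcribed toward higher coordinates, had the most interactions of the 10 genes, 74, a number reached by 0.615% of coding genes and by 0.696% of the 575 coding genes whose window covers the same 8 bins. All 8 bins took part, with 18 at the highest, in the bin from 117120001 to 117130000 at the start site, and 5 at the lowest. Of 71 interactions that left the window, 70 went to lower coordinates, upstream of the gene, and 1 downstream. The upstream partners filled all 15 bins from 116890001 to 117040000. They were 80 to 220 kb from the window, and the 3 most distant bins had 8 interactions each. Of the 70 upstream interactions, 65 formed part of 1 merged contact, which included 115 interactions in all.

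No other coding gene had an end between Spred1 and any partner. Tmco5, a gene for a coiled-coil transmembrane protein 229 kb away, had an end in the outermost bin of the block and took 8 interactions. Ends of the lncRNA gene D330050G23Rik lay in bins of the same outer part. Partner bins of Spred1 had a median of 7 interactions and 45.8% of their interactions were with Spred1. Fam98b, the next coding gene on the other side, was reached from them by 6 interactions, all 6 of which passed over Spred1. Counting the gene ends alone, Spred1 had 47 interactions, and the start site alone had 31.

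Spred2, of 99.6 kb on chromosome 11 (19924442 to 20024026), is transcribed toward higher coordinates. It had 26 interactions, a number reached by 5.94% of coding genes and by 15.5% of those with a window of 11 bins. The bin of its start site held 17, and the other 10 bins a mean of 1.5. In 6 interactions both anchors lay within the gene's own window, 7 went upstream and 13 downstream, so the contacts of Spred2 were less one-sided than those of Spred1 (65.0% against 98.6% on the larger side). They formed 10 merged contacts, reached by 3.03% of coding genes. Partners at gene ends were Actr2 (3 interactions), which encodes a subunit of the actin-nucleating Arp2/3 complex, Rab1a (1), a small GTPase of secretory traffic, and Slc1a4 (1), an amino acid transporter.

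The start regions of both Spred genes are shown in the same way. Capitals mark the core of the cAMP response element, TGACGTC or its complement, which was found in Spred2 and in 3.25% of all 31396 autosomal promoter entries. Spred1 lies at chr2:117120821-117121120 and Spred2 at chr11:19924192-19924491, both on the plus strand.
Spred1: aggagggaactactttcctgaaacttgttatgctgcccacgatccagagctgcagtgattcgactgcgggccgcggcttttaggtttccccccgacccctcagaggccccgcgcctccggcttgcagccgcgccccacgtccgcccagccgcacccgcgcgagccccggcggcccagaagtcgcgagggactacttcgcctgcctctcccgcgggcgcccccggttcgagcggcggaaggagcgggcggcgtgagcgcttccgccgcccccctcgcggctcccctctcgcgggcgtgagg
Spred2: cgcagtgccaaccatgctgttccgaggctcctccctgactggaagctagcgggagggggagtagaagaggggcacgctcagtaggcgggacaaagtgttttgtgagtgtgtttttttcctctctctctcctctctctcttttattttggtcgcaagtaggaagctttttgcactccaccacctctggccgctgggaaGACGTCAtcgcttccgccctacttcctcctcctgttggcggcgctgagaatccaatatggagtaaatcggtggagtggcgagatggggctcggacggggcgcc

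Ets1 and Ets2 encode ETS factors that ERK phosphorylates. Ets2, of 18.6 kb on chromosome 16 (95702407 to 95721049) and transcribed toward higher coordinates, had 38 interactions, a number reached by 1.09% of the 2390 coding genes whose window covers 4 bins. The 4 bins held 4, 18, 5 and 11, with the highest at the start site. Of the 38, 36 lay downstream and filled all 17 bins from 95800001 to 95970000, at 80 to 240 kb from the window, as part of 1 merged contact. That contact included 95 interactions in all, and the partner bins were also linked with one another by 24 interactions. All partners of Ets2 lay between coding genes, and no coding gene end was passed. The ETS gene Erg, the neighbour at lower coordinates at a distance of 116 kb, shared no interaction with Ets2 and had 4 in its window of 24 bins. The start region of Ets2, on the plus strand at chr16:95702157-95702456, contains none of the motifs searched.
Ets2: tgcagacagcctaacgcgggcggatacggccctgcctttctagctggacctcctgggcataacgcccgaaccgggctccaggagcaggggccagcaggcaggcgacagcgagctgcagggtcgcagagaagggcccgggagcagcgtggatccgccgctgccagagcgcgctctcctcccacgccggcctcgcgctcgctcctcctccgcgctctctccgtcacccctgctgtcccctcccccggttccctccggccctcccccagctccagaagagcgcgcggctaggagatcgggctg

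Ets1 covers 122.0 kb on chromosome 9 (32636241 to 32757820) and had 37 interactions, a number similar to that of Ets2 but differently placed. That number was reached by 2.91% of coding genes and by 12.4% of those with a window of 14 bins. The interactions of Ets1 were spread over 12 of the 14 bins of the window, the highest with 7. They lay inside the gene: the bins at its ends held 4. Ets1 reached partners on both sides, 15 lower and 21 higher. The lower ones lay 20 to 50 kb from the window, with 9 interactions in a single bin, and the higher ones 140 to 330 kb, with 11 in a single bin. These formed 6 merged contacts, the largest with 18 interactions between the gene and bins from 32900001 to 32950000. Partners in both directions lay between coding genes. Fli1, the ETS gene at a distance of 92.8 kb on the lower side, shared no interaction with Ets1. It had 19 interactions of its own, 1 of which joined an end of Fli1 to a partner bin of Ets1.

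**Figure D3:**
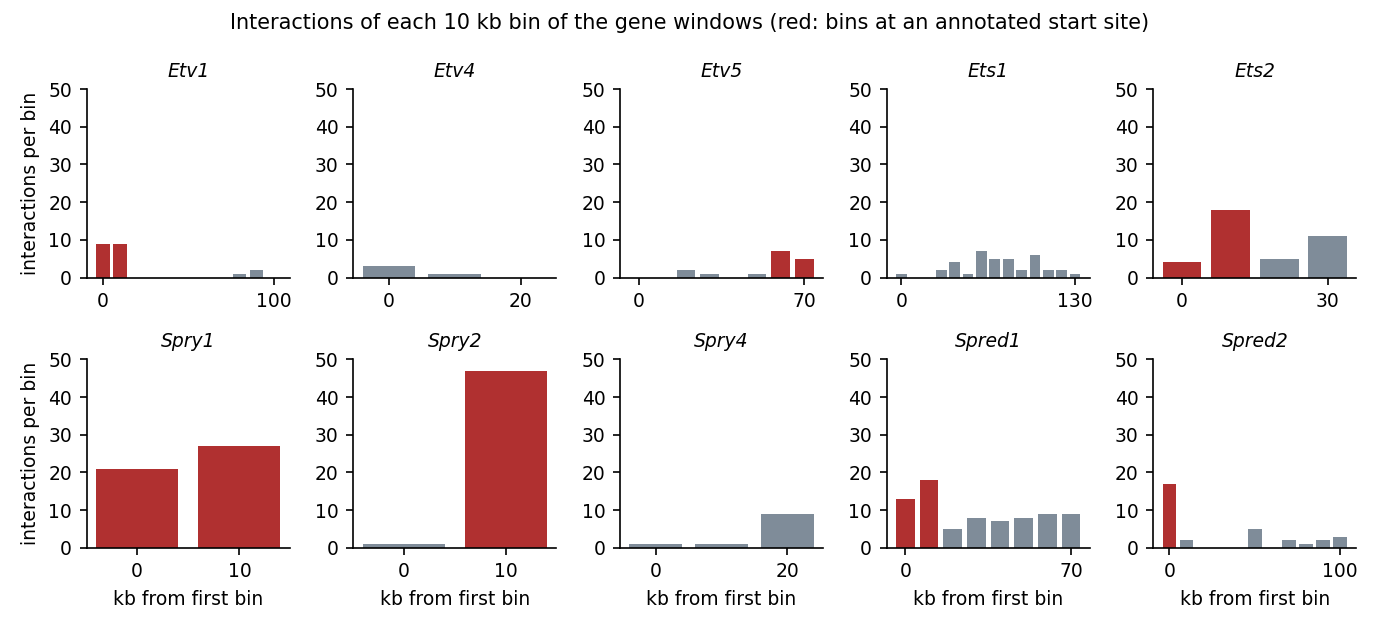
Interactions of each 10 kb bin across the window of each gene, from low to high coordinates; red bars are bins within 2.5 kb of an annotated start site (no start site was used for Etv4, Ets1 and Spry4). In Spry2, Spred2 and Etv1 the start-site bins hold most interactions (47, 17 and 9 each), and in Ets1 and Spred1 interactions are spread along the gene.

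Etv1, Etv4 and Etv5 form the PEA3 group of ETS factors, whose transcription follows FGF signalling in many tissues. Etv1, of 90.4 kb on chromosome 12 (38780082 to 38870483), had 18 interactions, a number reached by 10.9% of coding genes and by 27% of those with a window of 11 bins. All 18 had an anchor in the 2 bins at the start site, which held 9 each. With no flank around the gene, the count was 10, since the lower of these bins overlaps the flank alone. Inside the gene, 3 interactions joined the start to bins near the opposite end. Of the rest, 11 lay downstream, up to 180 kb past the gene, and 4 lay upstream, 430 and 640 kb away, inside Dgkb, a diacylglycerol kinase gene. The 9 partner bins had no listed interaction with anything but Etv1, and the only coding gene within 500 kb of Etv1 was Dgkb.

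Etv5, of 58.3 kb on chromosome 16 (22381313 to 22439570) and transcribed toward lower coordinates, had 16 interactions, a number reached by 13.1% of coding genes and by 21.2% of those with a window of 8 bins. Of these, 9 spanned 100 kb or more. The 2 bins at its start site held 7 and 5. Partners of Etv5 lay close, with a median interaction distance of 100 kb and a maximum of 150 kb. Upstream of the start, 13 interactions ended in 7 bins inside Dgkg, another diacylglycerol kinase gene, none of them at an end of Dgkg. The partner bin with the most, 4 with Etv5, had 10 interactions in all. The 3 interactions on the downstream side ended between coding genes, 60 and 70 kb from the window.

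Etv4, of 15.6 kb on chromosome 11 (101769747 to 101785310), had 4 interactions, a number reached by 47.3% of coding genes and the lowest of the 10. Of the 10 genes, Etv4 had the most other coding genes within 500 kb, 40. Of its 4 interactions, 3 involved the bin from 101760001 to 101770000, which also holds an end of Dhx8, an RNA helicase gene, so 1 was left without shared bins. All 4 went to higher coordinates, at 130 to 210 kb, and 1 of them, from the bin shared with Dhx8, ended at Dusp3, a dual-specificity phosphatase gene. The first of the annotated start regions of Etv1, on the plus strand at chr12:38779832-38780131, is shown with its TEAD motif match in capitals.
Etv1: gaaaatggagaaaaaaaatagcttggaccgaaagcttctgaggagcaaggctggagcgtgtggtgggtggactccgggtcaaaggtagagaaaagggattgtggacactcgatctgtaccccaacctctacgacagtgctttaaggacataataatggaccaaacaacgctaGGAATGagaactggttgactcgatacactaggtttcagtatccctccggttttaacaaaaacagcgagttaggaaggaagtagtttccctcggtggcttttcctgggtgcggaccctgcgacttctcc

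RefSeq promoter entries were matched for 7 of the 10 genes, 9 entries in all (Etv4, Ets1 and Spry4 were not matched), and 4 motifs were searched on both strands. The TEAD motif GGAATG was found at Spry1, with its first base at position -208 from the start site, and at Etv1 at -78. Of all autosomal promoter entries, 14.6% hold it. The core of the cAMP response element was at Spred2 at -53. Neither the ETS core CCGGAAG (9% of entries) nor the AP-1 motif TGANTCA (7.84%) was found in the entries of the 7 genes. A match says that these letters are present, not that a factor is bound. The GC content of the entries ranged from 44.0% at the second Etv1 start to 74.0% at the first Etv5 start, against a median of 53% over all entries.

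Start-site bins held more interactions on average than the other bins of the window in 6 of the 6 genes for which both exist (Etv1, Etv5, Ets2, Spry2, Spred1 and Spred2), where 69.0% of coding genes with an interaction did. Ets1, Etv4 and Spry4 had no matched start site and were not scored. At Ets1 the bins at the gene ends held 4 of its 37 interactions. The size of the difference varied among the scored genes. In Spry2 the start-site bin had 47 against 1, in Spred2 17 against 1.5 and in Etv1 a mean of 9 against 0.333. The means were closer in Ets2, 11 and 8, and in Spred1, 15.5 and 7.67. Spry2 lies wholly within its start-site bin, and its other bin overlaps the flank alone. Its values therefore compare the gene with its flank, not the start site with the rest of the gene.

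Partners of the 10 genes were most often between coding genes. Of 307 interactions that left the gene window, 251 (81.8%, exact 95% interval 77.0 to 85.9%) ended between coding genes, 34 (11.1%, 7.79 to 15.1%) inside another coding gene and 22 (7.17%, 4.55 to 10.6%) at an end of another coding gene. Over all coding genes counted the same way, the shares were 30.9%, 21.2% and 47.9%. In that background, an interaction touching several gene windows was counted for each of them (148237 counts from 85747 interactions). Interactions between gene ends therefore weigh more in it, while no interaction of the 10 genes was repeated. For the 10 genes, the share at an end of another coding gene was 19.6% of merged contacts and 4.0% when bins were placed by their midpoint. A merged contact was counted if any of its interactions ended there. Neither share is given here for all coding genes, so neither can be set against the 47.9%. The intervals cover counting error only and treat adjacent interactions as independent, which makes them narrower than the true uncertainty. The pooled share rests on Spred1, Spry1, Spry2, Ets1 and Ets2, which gave 223 of the 251; among the others it was 73.3% at Etv1, 75% at Etv4, 55.0% at Spred2, 18.8% at Etv5 and 0% at Spry4.

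By their median, the 10 genes had fewer coding neighbours than coding genes in general. The median number of other coding genes within 500 kb was 5.5 for the 10 genes and 17 for all coding genes. Etv4 differed, with 40, and 88.3% of coding genes had that many or fewer. Of the 9 genes with at least 10 interactions leaving the window, 5 had at least 80% of their partners between coding genes, where 9.79% of such coding genes did. Among such coding genes with at most 5 others within 500 kb, 33.3% did. Spry1 (7 others) and Ets2 (8 others), counted above, lie outside that class, so the sets compared are not alike. The part of gene density in the share was not tested.

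**Figure D4:**
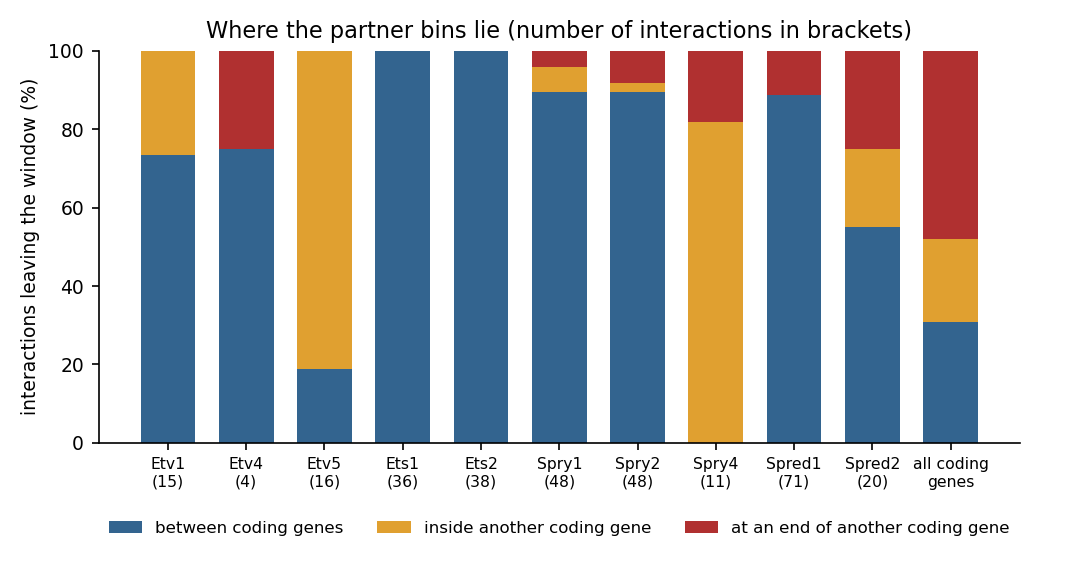
Share of interactions leaving each gene window by position of the partner bin, with the number of interactions in brackets and all coding genes at the right. Partners of Ets1 and Ets2 are all between coding genes, and most of those of Spry4 and Etv5 are classed as inside a neighbouring gene.

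The contacts of most genes lay largely on 1 side, as for coding genes in general. Of the same 9 genes, 6 had at least 80% of their interactions on 1 side, against 68.1% of coding genes. The share on the larger side ran from 58.3% at Ets1 to 98.6% at Spred1 and 100% at Spry4. Relative to transcription, the larger side was downstream in Spry1, Spry2, Ets2, Etv1 and Spred2 and upstream in Spred1 and Etv5. Distances had a median of 200 kb (interquartile range 130 to 270 kb), against 170 kb (100 to 300 kb) for the interactions of any coding-gene window. Interactions under 100 kb made up 11.2% against 22.7%, and those over 500 kb 6.25% (20 interactions) against 8.83%. Between genes the medians ran from 100 kb at Etv5 to 385 kb at Spry2.

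Other genes of the pathway were taken from 5 lists of 82 genes, of which 78 lie on autosomes in the annotation and were scored (Araf, Spry3, Elf4 and Elk1 were not). Of these, 67 had an interaction (85.9%, against the 67.8% of coding genes), with a median of 8. Receptor genes had an interaction at 11 of 11 with a median of 26, led by Igf1r with 143, Egfr with 59 and Fgfr2 with 36. Among the negative feedback genes outside the described set, 12 of 12 had one and the median was 18, led by Dusp4 with 77, Dusp5 with 28 and Dusp6 with 25. These encode phosphatases of MAP kinases, Dusp6 being specific for ERK. Spred3, the remaining Spred gene, had 4.

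Ligand genes had an interaction at 12 of 16, with a median of 7, led by Fgf1 (15), Pdgfb (13) and Hgf (10). That share is 75%, near the 67.8% of all coding genes, whose median was 3. Genes of signal transduction had one at 18 of 20, with a median of 7.5, led by the exchange factor gene Sos2 (50), the neurofibromin gene Nf1 (39) and the adaptor gene Gab1 (28). Other ETS factor genes had one at 14 of 19 (73.7%, also near that of coding genes), with a median of 4, led by the repressor gene Etv6 (143 in a window of 25 bins), Elk3 (45) and Elf1 (20). Per bin, the medians were 3 for receptors, 1.5 for other feedback genes, 1.36 for other ETS factors, 1.33 for transduction and 0.833 for ligands. For the 10 described genes the median per bin was 3.15.

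**Figure D5:**
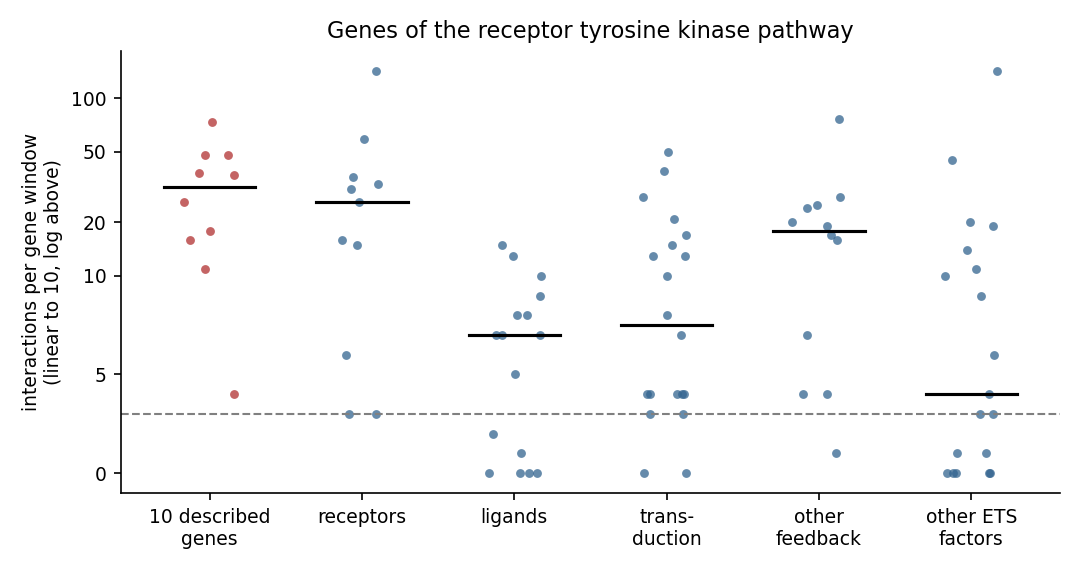
Interactions per gene window of the 10 described genes (red) and of 5 lists of other pathway genes (blue), on an axis that is linear to 10 and logarithmic above; black bars are medians (31.5, 26, 7, 7.5, 18 and 4) and the dashed line is the median of all coding genes, 3. The lists overlap widely, and the receptor median lies closest to that of the described genes.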

How the data were processed

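The labels describe H3K27ac libraries of YAP-M tumor (2) and neural stem cells (2), as ChIP-seq in the titles and HiChIP in the extraction protocol; 1 deposited list was analysed. Per the file header it holds the chromosome, start and end of 2 anchors for each interaction. Per the submitters' processing notes, BWA and mm10 were used. Which caller and threshold made the list, and whether replicates were pooled, is not given in the sources used here. All bins were 10 kb on 19 autosomes, at distances of 20 to 1000 kb. A caller limited to this range cannot list shorter or longer contacts.

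Gene positions came from RefSeq (GRCm38.p6) and start sites from RefSeq promoter entries. Interactions were counted per gene window with Python 3.11.15, pandas 2.3.3 and scipy 1.17.1, and merged where both anchors differed by at most 1 bin. Partner bins were classed as at a coding-gene end (within 2.5 kb), inside a coding gene, or between coding genes. Noncoding genes were left out of these classes, so some bins between coding genes hold ends of lncRNA genes or pseudogenes. The counting was tested on simulated data for 200 genes and returned all 200 planted counts. The simulation placed interactions by the same window code, so this could not reveal an error in the window limits. Named genes were the 10 described, genes sharing their bins, up to 3 partner genes each, the 3 highest of each pathway list, and Fli1 and Erg; Spred3, the neighbours Dgkb, Dgkg, Arhgap26, Spata5 and Fam98b, Nudt6, Fgf2 and D330050G23Rik were named after their values were seen. The genes, lists and alternatives were chosen with earlier results of these data known.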

Additional observations from a re-analysis of the deposited data

How the results depend on the processing

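No paired analysis was possible because interactions are not tied to libraries; for the same reason no library was left out, and no stricter threshold was run, since the list has no score. Depth is unknown. All 10 genes had an interaction under windows of 0 and 5 kb, gene ends only, bin midpoints, merging and a minimum distance of 100 kb; a minimum of 5 interactions left 9 genes (41.9% of coding genes). The total of 320 interactions became 195 at start sites alone (7 genes with a start site), 60 after merging, and between 236 and 325 under the other alternatives. The share of partners at coding-gene ends (7.17%) was 4.0% by bin midpoint and 19.6% of merged contacts, each counted if any of its interactions ended there. Of 87 counts of single genes under an alternative, 63 stayed within 1.5 times the reported count and 24 did not. Merging lowered every gene's count. By bin midpoint Spry1 had 27, Ets2 23, Etv1 10, Spry4 2 and Etv4 1, since a bin that the window overlaps short of its midpoint is then left out. Etv5 had 9 interactions of 100 kb or more. Removal of bins shared with another gene, added after the data were seen, left 307 interactions. Against all annotated genes, of which 53% had an interaction, the counts of the 10 genes are the same by construction.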
